A study of Mus musculus with 2 samples.

Results

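Enzymes that add or remove acetyl and methyl groups on histones were examined in neutrophils, the short-lived phagocytes of the blood, from mouse bone marrow, together with the scaffold proteins that carry these enzymes and the peptidylarginine deiminases. The 42 genes were listed by name and role, with no threshold on their values, although earlier results of these data were known when the list was made. A gene was measured where the platform annotation gave a probe set, the group of short probes that reads a transcript, exactly 1 gene symbol. That held for 41 of the 42 genes, with 87 probe sets, out of 18193 genes in all. The corepressor gene Ncor1 had no such probe set and was not analysed here, and 1 probe set annotated to Kdm6b together with another gene was left out.

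The cells came from mice labelled Jdp2 KO, for a knockout of the AP-1 family repressor Jdp2, and from mice labelled Jdp2 WT, both on a mixed background of C57BL/6 and 129/J. Cells positive for CD11b and Ly6G and low for Ly6C were sorted by flow cytometry, and their total RNA was labelled with biotin for Affymetrix arrays. Each genotype is represented by 1 array, 2 in all. The age and sex of the mice, the deleted part of Jdp2 and the number of mice behind an array are unknown here. There are no replicates, so no difference below has a p-value or an error between mice, and the number of arrays limits the precision. Values are log2 signals, and each difference is the array labelled KO minus the array labelled WT, so a difference of 1 is 2-fold.

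Acetyltransferases place acetyl groups on lysines of histone tails, which loosens chromatin and is bound by reader proteins at active genes. Deacetylases take these groups off again, mostly as part of complexes held together by corepressor scaffolds, and the sirtuins do so at the cost of NAD. Lysine methyltransferases and demethylases write and erase methyl marks, among them the silencing mark of Polycomb repressive complex 2. In neutrophils the deiminase Padi4 turns arginines of histones into citrulline, a step known from the release of extracellular traps. Jdp2 itself is known to bind histones, to hinder their acetylation and to recruit a deacetylase, which is why the levels of these enzymes are of interest in cells labelled as lacking it.

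The arrays were alike in overall signal, with medians of 5.67 (KO label) and 5.65 (WT label) over 45037 probe sets. The stronger probe set of Jdp2 (1450350_a_at) read 12.38 and 12.00 in that order, so the targeted gene gives no check of the labels, and a probe set outside the deleted part would give none either. Of 12 neutrophil markers 11 were measured, with a median difference of -0.04 and summed linear signals of 170166 and 169383. The sort marker Ly6g was not analysed here. Markers of other cells differed more. With the KO label, all 6 primary granule genes of immature neutrophils exceeded the WT label by 2-fold or more (summed signals 6382 against 1686), and so were 10 of the 12 monocyte and macrophage markers past the level filter described below (13 measured, summed signals 9206 against 5231). Of 5 platelet markers, 3 were 2-fold higher or more (summed signals 3265 against 1103), and of 4 passing B cell markers 1 was, Igll1 (7 measured, summed signals 667 against 651). Summed signals were 1499 against 1196 for T and NK cell markers (4 measured, 3 passing). For erythroid markers they were 830 against 994 (5 measured, of which only 1, Tfrc, passed). All 9 measured proliferation genes differed by more than 0, with a median of 0.38 (summed signals 11502 against 9625). The part of these cells in any difference below was not tested, and in bulk RNA fewer cells of a type and less RNA per cell cannot be told apart.

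Since Jdp2 binds DNA at AP-1 sites (TGACTCA, also read as TGAGTCA on the opposite strand) and at cyclic AMP response elements (TGACGTCA, the same on both strands; no match of either motif overlapped another here), both motifs were searched on both strands in RefSeq promoter windows of GRCm38.p6. A window runs from 250 bases before a gene start to 50 bases after it. Windows were found for 36 of the 42 genes, 48 windows in all. The AP-1 motif was found in 4 of these windows (8.33%), those of Padi4, Kat8, Kat2b and Hdac7, against 5.20% of 32851 windows of all genes. The response element was found in none, against 1.79% of all windows. The stretches around the matches are shown because they are the places in this gene set where the letters bound by Jdp2 dimers occur in the windows searched. Capitals mark the motif, and each runs 5′ to 3′ on the gene's strand.
Padi4 (chr4:140774241-140774267, minus strand): gggcaggtgcTGACTCAtgggctcgcc
Kat8 (chr7:127912831-127912857, plus strand): gccagggtggTGACTCAggtaagaagg
Kat2b (chr17:53566721-53566747, plus strand): cacacaccatTGAGTCAtctccctccc
Hdac7 (chr15:97814825-97814851, minus strand): gctgagcagcTGAGTCActcagtagct
The match begins 54 bases before the gene start in Padi4, 173 before it in Kat8, 240 before it in Kat2b and 22 after it in Hdac7. Kat8, Kat2b and Hdac7 each have more than 1 window, and only 1 of them holds the motif. Padi4 is the member known above all from neutrophils, and the 250 bases before its start (chr4:140774204-140774453, minus strand) are shown with the motif in capitals.
Padi4 upstream: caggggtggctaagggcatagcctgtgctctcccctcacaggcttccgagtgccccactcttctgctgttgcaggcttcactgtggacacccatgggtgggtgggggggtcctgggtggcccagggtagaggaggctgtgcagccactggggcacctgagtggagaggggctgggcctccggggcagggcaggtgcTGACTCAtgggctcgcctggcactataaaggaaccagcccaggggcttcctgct
A match is a description of letters and no sign of binding. In their representative probe sets these genes differed by -0.09 (Padi4), -0.23 (Kat8), 0.03 (Kat2b) and -0.31 (Hdac7). The other probe sets of Kat2b differed by -0.53 and -0.76, and that of Hdac7 by 0.07.

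No member was 2-fold apart between the arrays in its strongest probe set, although a weaker probe set of Kat7 (1.04) and of Suz12 (1.11) was. Each gene was read from the probe set whose mean over both arrays was highest, here called representative, and it passed the level filter when its higher value reached the median of that array. Of the 41 measured members 38 passed. Of these, 0 were higher by 2-fold or more with the KO label, where 3.06% of all 11168 passing genes were, and 0 were at least 2-fold lower, where 2.33% were. With shares this small, a count of 0 among 38 genes is not read as a trait of these genes. At the lower bar of 1.5-fold, 0 members were higher (8.49% of all passing genes) and 2 were lower (8.86%), namely Hdac10 and Ehmt1. The differences ran from -0.76 to 0.49, with a median of -0.09 beside -0.04 for all passing genes. Of the 38, 25 differed by less than 0 (65.8%, beside 55.1% of all passing genes) and 13 by more than 0. The median absolute difference was 0.17 for the members and 0.24 for all passing genes.

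**Figure D1:**
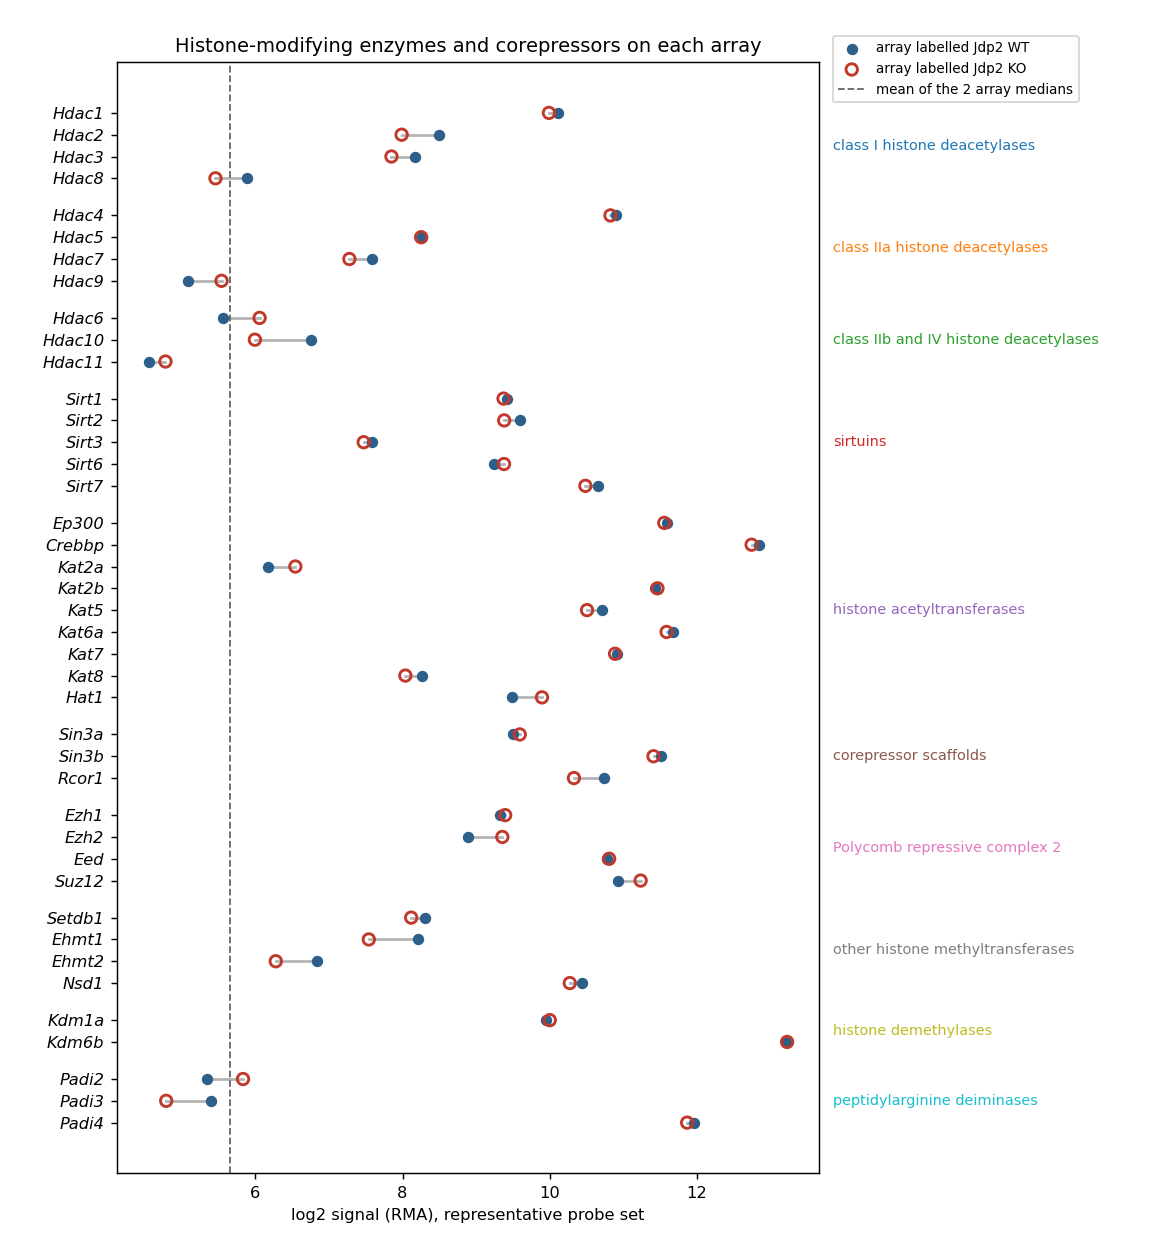
Log2 RMA signal of each measured member on the horizontal axis, with 1 row per gene grouped by role, for the array labelled Jdp2 WT (filled) and the array labelled Jdp2 KO (open). The widest gap among members past the level filter is that of Hdac10, at -0.76, and the dashed line at the mean of both array medians separates weak signals on its left.

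Many of these genes gave strong signals on both arrays. In percentiles of all probe sets, which place a probe set within its array and are no amounts of transcript, the median over the 41 members was 85.1 with the KO label and 84.9 with the WT label. On both arrays 15 of 41 members lay above the 90th percentile, a larger share than the 14.5% of all genes. Members and all genes alike were read from their strongest probe sets here, which favours high percentiles. When all passing genes were split by mean signal into 3 bins of equal size, 18 members fell in the upper bin, where their median absolute difference was 0.10 (0.15 for all genes there). It was 0.20 among the 14 members in the middle bin (0.29 for all genes) and 0.49 among the 6 in the lower bin (0.36 for all genes). In the lower bin 3 of the 6 members, Hdac8, Hdac6 and Padi2, passed the filter on 1 array only, which favours large differences there. With a value under its array's median set to that median, the lower bin stood at 0.39 for members and 0.26 for all genes.

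**Figure D2:**
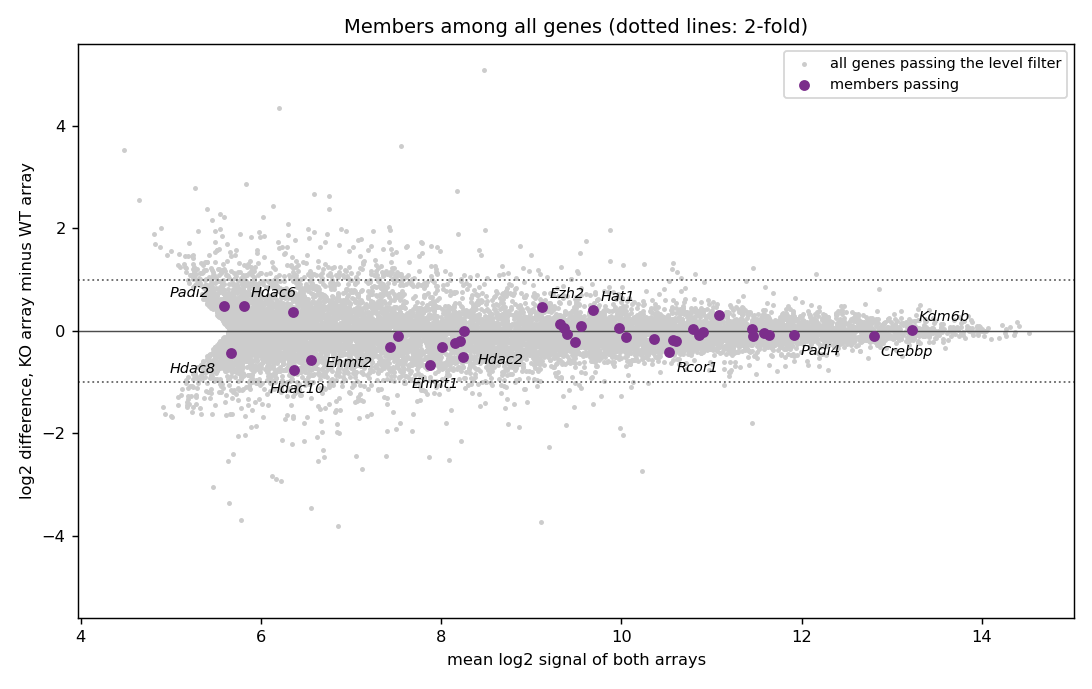
Difference (KO array minus WT array, log2) against the mean log2 signal of both arrays for the 11168 genes that passed the level filter (grey) and the 38 passing members (purple), with dotted lines at 2-fold. All 38 members lie between the dotted lines, and the scatter of grey and purple points narrows to the right.

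Of the class I deacetylases, Hdac1, Hdac2 and Hdac3 form the catalytic core of nuclear corepressor complexes. All 4 class I members read lower with the KO label in their representative probe sets, as did 55.1% of all passing genes. The 4 differences lay between -0.51 and -0.12, with none at 1.5-fold. Hdac1, which sits in the Sin3, NuRD and CoREST complexes, read 9.99 against 10.11. Hdac2, its close relative in the same complexes, read 7.99 against 8.50 in its strongest probe set (1445684_s_at), a difference of -0.51. The other probe sets of Hdac2 did not give 1 direction: 1449080_at read 7.45 against 8.27 (-0.82) and 1439704_at read 7.37 against 6.98 (0.39). Hdac3, the enzyme of the NCoR complex, read 7.85 against 8.16. Hdac8 was weak, at 5.46 against 5.89, and its difference of -0.43 shrank to -0.22 when the KO value, which lay under its array's median, was set to that median. Among all passing genes within 0.5 of the mean signal of Hdac2, 26.0% differed by as much or more in either direction.

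The class IIa deacetylases, which shuttle between cytoplasm and nucleus and act mainly through bound partners, differed by -0.01 to -0.31 in the 3 members that passed, with Hdac5 at 0.07 after quantile or loess normalisation. Hdac4 read 10.83 against 10.91, and its 3 probe sets lay between -0.18 and -0.08. Hdac5 read 8.25 against 8.26. Hdac7 read 7.28 against 7.59 in 1 probe set and 6.54 against 6.47 in the other. Hdac9 did not pass the filter, and its probe sets pointed apart, at 0.45 and -0.31.

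Of the class IIb deacetylases, Hdac10 had the largest absolute difference of any passing member in its representative probe set. Hdac10, a polyamine deacetylase, read 5.99 against 6.75, a difference of -0.76 or 1.69-fold. Its second probe set lay near the bottom of both arrays, at 2.18 and 2.44, so the difference rests on 1 probe set. At that signal 15.6% of all passing genes within 0.5 of its mean differed by as much or more. Hdac6, which deacetylates tubulin in the cytoplasm, read 6.06 against 5.56, a difference of 0.49, or 0.41 with the WT value set to its array's median. Hdac11, the class IV enzyme, stayed under the array medians at 4.78 and 4.55. The sirtuins Sirt1, Sirt2, Sirt3, Sirt6 and Sirt7 had 1 probe set each, and their differences lay between -0.21 and 0.13. The probe set that lay highest in its arrays was that of Sirt7, an enzyme of the nucleolus, at 10.49 against 10.66.

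Several acetyltransferases lay high in both arrays. Over all 9, the differences of the representative probe sets ran from -0.23 to 0.41. Those of the other passing probe sets ran from -0.76 (Kat2b) to 1.04 (Kat7). Crebbp and Ep300, the paralogous coactivators that acetylate histones at enhancers, differed by -0.11 and -0.04. Crebbp read 12.75 against 12.85, and its 4 probe sets lay between -0.33 and 0.08. Ep300 read 11.56 against 11.60 in its only probe set. Kat6a, the MOZ enzyme of haematopoietic stem cells, read 11.59 against 11.68, and Kat5, the Tip60 enzyme, 10.51 against 10.71. Kat8, the MOF enzyme, read 8.04 against 8.27, and Kat2a, the GCN5 enzyme, 6.54 against 6.18.

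Among the representative probe sets of the acetyltransferases, Hat1 had the highest difference. It acetylates newly made histones before they are packed onto DNA, and it read 9.90 against 9.49, a difference of 0.41 on 1 probe set. Of all passing genes within 0.5 of its mean signal, 18.0% differed by as much or more. The proliferation markers listed above had a median difference of 0.38 in the same direction, and their part in this difference was not tested.

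The probe sets of Kat7 and of Kat2b did not move together. The strongest probe set of Kat7 (1433433_at), the HBO1 enzyme, read 10.89 against 10.91, while 1447631_at read 8.77 against 7.72, a difference of 1.04 that passed 2-fold. The strongest probe set of Kat2b (1434037_s_at), the PCAF enzyme, read 11.46 against 11.43, while 1457809_at read 7.75 against 8.28 and 1450821_at read 7.38 against 8.14. For each gene the strongest probe set was level and the weaker ones were apart. Over all members, 2 of the 73 passing probe sets were at least 2-fold higher (2.81% of all passing probe sets with 1 symbol) and 0 were at least 2-fold lower (2.33%). Of the 18 members with 2 or more passing probe sets, 12 had probe sets on both sides of 0, and the median SD over the probe sets of a gene was 0.26. For all 4867 such genes the share on both sides was 47.7% and the median SD 0.22. This spread comes from probes on the same RNA and says nothing of the spread between mice.

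**Figure D3:**
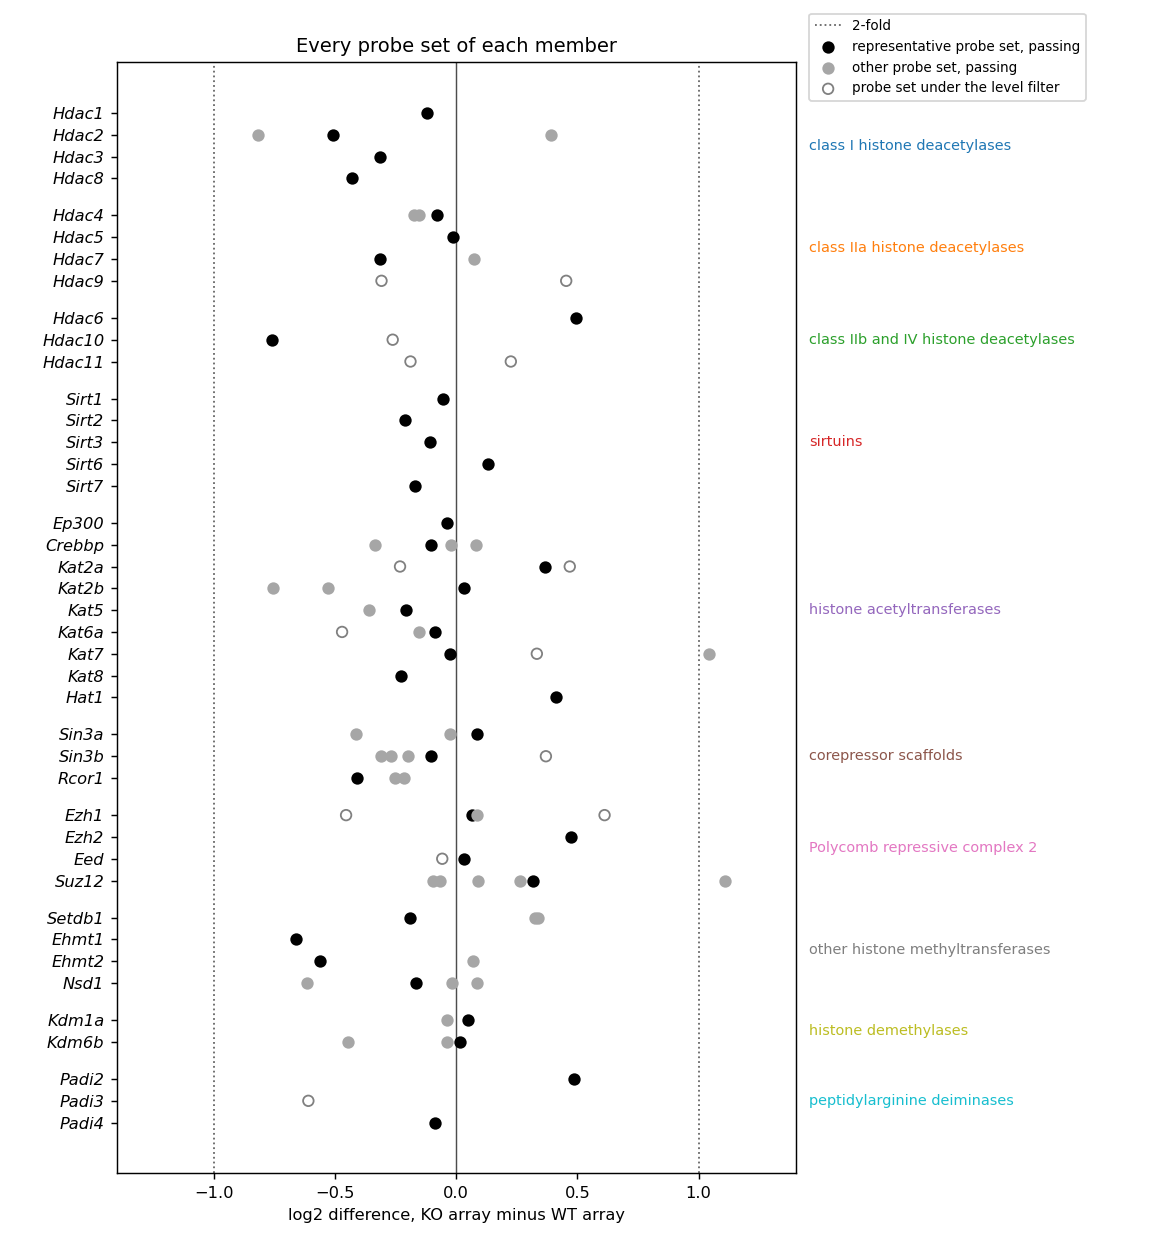
Difference (KO array minus WT array, log2) of each of the 87 member probe sets, with 1 row per gene grouped by role, the representative probe set in black, other passing probe sets in grey and probe sets under the level filter open. The 2 points right of the dotted 2-fold line are single probe sets of Kat7 (1.04) and Suz12 (1.11), while the other probe sets of these genes run from -0.10 to 0.33.

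Among the scaffolds that hold deacetylase complexes, Rcor1 differed most in its representative probe set. Rcor1, which encodes the CoREST protein that joins deacetylases to the demethylase Kdm1a, read 10.33 against 10.74, a difference of -0.41. All 3 of its probe sets lay below 0, from -0.41 to -0.22, and of passing genes within 0.5 of its mean signal 9.73% differed by as much or more. Sin3b read 11.41 against 11.52, and its 4 passing probe sets lay between -0.31 and -0.11. Sin3a read 9.59 against 9.51, with probe sets from -0.41 to 0.09. Kdm1a itself, which erases methyl groups in the CoREST complex, differed by 0.05.

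Members of Polycomb repressive complex 2, which methylates histones at silenced genes, all differed by more than 0 in their representative probe sets. The differences ran from 0.03 to 0.47, while 55.1% of all passing genes differed by less than 0. Ezh2, the catalytic subunit of dividing cells, read 9.36 against 8.88, a difference of 0.47 on 1 probe set. Ezh1, the catalytic subunit of resting cells, read 9.39 against 9.33. Eed, the subunit that binds the mark, read 10.81 against 10.78, and averaging both of its probe sets gave -0.01. Suz12, the structural subunit, read 11.24 against 10.92, a difference of 0.31. Its 6 probe sets ran from -0.10 to 1.11, and the 1 past 2-fold (1420020_at) was weak, at 6.23 against 5.12, and its difference was 0.58 with the WT value set to its array's median. Of passing genes within 0.5 of their mean signals, 20.4% differed by as much as Ezh2 or more and 17.2% by as much as Suz12 or more. The proliferation markers (median 0.38) and the primary granule genes (median 3.24) were higher in the same array, and their part in these differences was not tested.

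In their representative probe sets the other methyltransferases all read lower with the KO label, led by the pair that methylates the same lysine of histone tails as a heterodimer. Of all passing genes, 55.1% also read lower. Ehmt1, encoding GLP, read 7.54 against 8.20 in its only probe set, a difference of -0.66 or 1.58-fold. Of passing genes within 0.5 of its mean signal, 18.0% differed by as much or more. Ehmt2, encoding G9a, read 6.28 against 6.84 (-0.56) in 1 probe set and 5.75 against 5.67 (0.07) in the other. The signals of Ehmt2 thus gave the direction of Ehmt1 in only 1 of its 2 probe sets. The other lay close to the array medians of 5.67 and 5.65, where a difference is hard to see. Setdb1, which silences endogenous retroviruses, differed by -0.19 in its strongest probe set and by 0.34 and 0.32 in the others. Nsd1 read 10.27 against 10.44, and its 4 probe sets ran from -0.61 to 0.09.

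In the strongest probe set of each, Kdm6b and Padi4 lay near the top of both arrays and were level between them. Kdm6b, the demethylase that removes the Polycomb mark and is induced in activated myeloid cells, read 13.23 against 13.21 in a probe set that the maker marks as able to bind other transcripts (1447612_x_at). Its other probe sets lay lower and read 9.47 against 9.50 and 6.28 against 6.72, the latter a difference of -0.45. Padi4, the histone deiminase of neutrophils, read 11.87 against 11.96, a difference of -0.09, and lay at percentiles 96.8 and 97.0. Padi2, its relative in macrophages and brain, was weak at 5.83 against 5.35, and its 0.48 was 0.18 with the WT value set to the array's median. Padi3, known from hair follicles, stayed under both array medians at 4.79 and 5.40. Padi4 was thus the only 1 of the 3 deiminases examined with a signal far above the array medians.

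Beyond the 42 genes, 191 other chromatin genes were listed, of which 181 were measured and 168 passed the filter. Of the 168, 2 were at least 2-fold higher (1.19%, beside 3.06% of all passing genes) and 2 at least 2-fold lower (1.19%, beside 2.33%). The median difference was -0.04, the same to 2 decimals as for all passing genes. The largest difference belonged to Jade1, a scaffold subunit that guides Kat7 to histones. Jade1 read 10.55 against 9.19 in its strongest probe set, a difference of 1.36, and its 4 probe sets all lay above 0, from 0.81 to 1.79. The second gene past 2-fold was Scmh1, a Polycomb protein, at 7.20 against 6.12, although another passing probe set of it lay at 0.02. The lower genes were Kat14, an acetyltransferase of the ATAC complex, at 5.31 against 6.44 (-1.14), and Kdm1b, a relative of Kdm1a, at 5.37 against 6.38 (-1.01). With the KO values, both under the median of their array, set to that median, the differences were -0.78 and -0.72.

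Subunits of deacetylase complexes had a median of -0.05 over 27 passing genes, with Chd3 at -0.59, Brms1 at -0.47, Arid4b at -0.42 and Rcor3 at 0.41. The KO value of Chd3 lay under its array's median, and the difference was 0.01 with that value set to the median. All 3 passing probe sets of Rcor3 lay above 0, and the mean over all 6, weak ones included, was -0.11. Acetyltransferases and the members of their complexes had a median of -0.06 over 32 genes, and after Jade1 and Kat14 the largest were Tada2a (-0.73) and Trrap (-0.59), a scaffold of several acetyltransferase complexes. Readers of acetylated lysines had a median of -0.02 over 16 genes, with Mllt3 at 0.58, Mllt1 at -0.47, Yeats2 at 0.46 and Brd3 at -0.26. The WT value of Mllt3 lay under its array's median, and the difference was 0.44 with that value set to the median. The other probe sets of Brd3, all passing, lay between -0.85 and -0.46. The remaining sirtuins Sirt4 and Sirt5 differed by 0.31 and 0.26. The WT value of Sirt5 was under its array's median, its difference was 0.11 with that value set to the median, and the mean over its 3 probe sets was -0.27. For Yeats2 the mean over both probe sets was 0.09.

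Among the other methyltransferases the median was -0.09 over 27 genes. Ash2l, a core subunit of the complexes that mark active promoters, differed by 0.76, with its probe sets at 0.76 and 0.74, followed by Kmt5b (-0.58), Kmt5c (-0.35) and Dpy30 (0.33). Demethylases had a median of -0.08 over 20 genes, with Kdm4b at -0.78, Kdm4a at -0.53 and Riox1 at -0.34 after Kdm1b. Further Polycomb proteins had a median of 0.02 over 21 genes, with the deubiquitinase gene Bap1 at -0.83 (probe sets at -0.83 and -0.66), Phf1 at -0.55 and Ring1 at -0.45. Arginine methyltransferases and a partner, of which only 5 of 10 passed, had a median of 0.04, with Prmt9 at -0.29, Prmt3 at 0.26, Wdr77 at 0.15 and Carm1 at -0.09. The other passing probe sets pointed the opposite way for Prmt9 (0.49 and 0.23) and for Wdr77 (-0.16 and -0.05). Padi6 and Padi1 differed by -0.48 and 0.39, and Padi6 by -0.24 with its KO value set to the array's median. Histone chaperones and inhibitors of acetylation had a median of 0.03 over 16 genes, with Npm1 at 0.47, Asf1a at -0.33, Daxx at -0.29 and Anp32e at 0.19. A second passing probe set of Asf1a lay at 0.45.

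**Figure D4:**
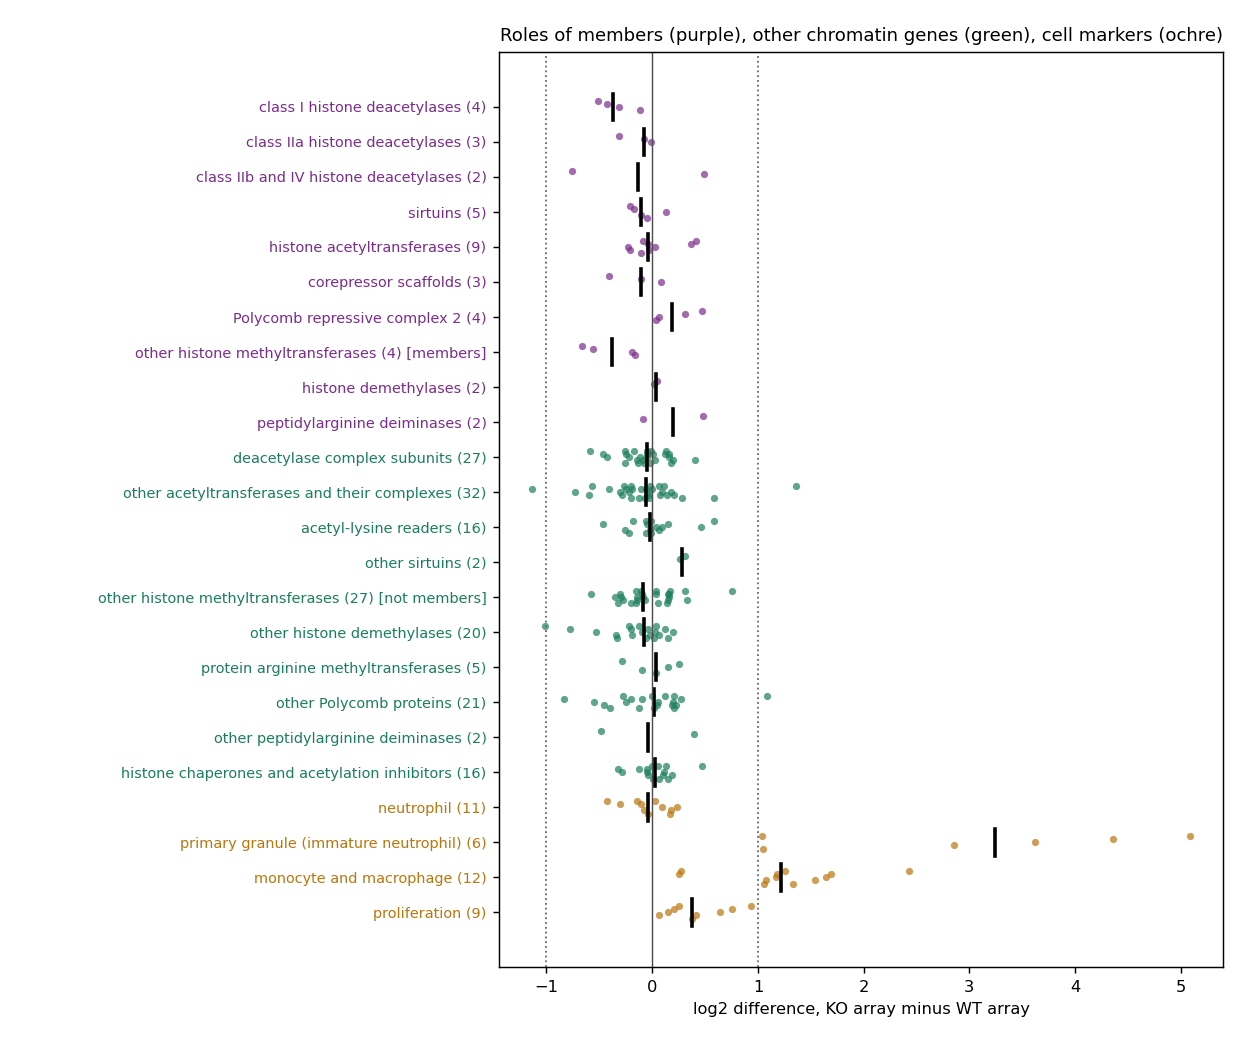
Differences (KO array minus WT array, log2) of passing genes in each role of the 42 genes (purple), in the lists of other chromatin genes (green) and in 4 marker lists (ochre), with the number of genes in brackets, a black bar at each median and dotted lines at 2-fold. The medians of the chromatin lists lie between -0.38 and 0.29, while those of monocyte and macrophage markers (1.22) and primary granule genes (3.24) lie beyond 2-fold.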

How the data were processed

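The authors deposited log2 values per probe set, which RMA produced according to the submitters' processing notes. The RMA version, its background step and the genome build were not given in the sources used here. After sorting, the columns differed by 0.117 at most. Of 45101 probe sets, 64 controls were left out. Of the rest, 34945 had 1 symbol in the platform annotation, 932 had several and 9160 had none. Symbols were updated through Entrez identifiers (34741 matched) against a gene table of GRCm38.p6.

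The representative probe set of a gene had the highest mean over both arrays. It passed when its higher value reached the median of all probe sets on that array. With 1 array per group there was no test. Genes were counted at an absolute log2 difference of at least 1. The code was tested on simulated arrays. Work used Python 3.11.15, pandas 2.3.3, NumPy 2.4.6 and statsmodels 0.14.6 (loess, span 0.3).

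Genes printed with both values were members that passed and differed by at least 0.5, those with a passing probe set past 2-fold, and the highest in each role. Up to 4 genes per list of other chromatin genes had the largest absolute difference. Further members are printed to account for all 42. The members and lists were chosen with earlier results of these data known. Alternatives were other level filters, scalings, choices of probe set and a 1.5-fold rule.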

Additional observations from a re-analysis of the deposited data

How the results depend on the processing

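The count of members at least 2-fold higher was 0 and that of members at least 2-fold lower was 0 under each of the 9 alternatives in level filter, scaling and choice of probe set. With a 1.5-fold rule 0 were higher and 2 were lower. The median difference lay between -0.11 and -0.05 over these 9 alternatives. From 20 to 26 members differed by less than 0, out of 30 to 41 counted. Their share ran from 60.5% to 72.2%, beside 50.7% to 58.8% of all genes counted in the same settings. Between 3 and 4 of the other chromatin genes were past 2-fold under the 4 alternatives run for them, but they were not always the same genes. With the mean of all probe sets, Kat14 (-0.48) and Scmh1 (0.61) fell short of 2-fold. Supt7l, from the list of acetyltransferase complexes, was past it there beside Jade1 and Kdm1b, although its strongest probe set differed by only 0.28. The sign of Hdac5, Kat7, Kdm6b and Sirt1 changed under at least 1 other scaling, and their differences there lay between -0.07 and 0.07. The mean of all probe sets moved Kat7 to 0.45, Kat2b to -0.42, Setdb1 to 0.16 and Ehmt2 to -0.25. The median of passing probe sets gave 0.51 for Kat7, -0.53 for Kat2b, 0.32 for Setdb1 and -0.25 for Ehmt2. Without shared probe sets Hdac2 came to -0.82, Kat2b to -0.53 and Suz12 to 0.09. Smaller changes of sign were those of Sin3a (-0.12) and Eed (-0.01) with the mean, and of Kdm1a (-0.04) without shared probe sets. Hdac3 and Kat8 had only a shared probe set each, so they had no value in that setting. No paired analysis was possible because each group holds 1 array. With 1 array per group no replicate could be left out either, and differences near the array medians, where signal and background mix, are the least certain.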
